A study of Mus musculus with 39 samples.

Results

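The Pax, Lhx, Nkx, Irx, sine oculis (Six2 to Six6) and Dlx families encode transcription factors of embryonic development. From these families 44 genes outside the Hox clusters were examined for 4 histone marks in 3 populations of mouse endoderm cultures. The genes were a named list of 9 from the Pax family, 8 from Lhx, 10 from Nkx, 6 from Irx, 5 from sine oculis and 6 from Dlx, chosen by family and not by a measured value, out of 21911 protein-coding genes on GRCm38. A gene counted as carrying a mark in a library when a listed peak overlapped its window, which was the gene body plus 10 kb on either side. The 44 windows lay on 14 chromosomes and made up 0.0665% of the summed length of all chromosomes. Their median was 26.9 kb, against 37.4 kb over all genes. The windows of Dlx1 and Dlx2, Dlx3 and Dlx4, and Dlx5 and Dlx6 overlap, so that these 6 genes shared peaks.

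The libraries were CUT&Tag libraries, in which an antibody against a mark directs a transposase to cut and tag the DNA around it. Cultures of nEnd, naive extra-embryonic endoderm of the OCT4-mCherry reporter line, were grown without further treatment in RACL medium, which contains Activin A, CHIR99021 and LIF, on mouse embryonic fibroblast feeders. They were sorted by FACS for OCT4-mCherry and for PDGFRA, a receptor of the endoderm surface, into Oct4+, double-positive (DP) and Pdgfra+ cells. Each of the 12 combinations of mark and population had 3 replicates, which gave 36 libraries, all from the same reporter line. The study describes its replicates as biological but does not say that each was a separate culture, so that p-values measure the spread between these libraries, which may be technical.

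The values are lists of peaks that the authors called in each library, and the reads behind them are not known. The lists held between 1143 and 8672 peaks for H3K27me3, between 3079 and 65131 for H3K27ac, between 1074 and 16057 for H3K4me1 and between 5322 and 29970 for H3K9me3. The bases covered by H3K27me3 peaks ranged from 2.80 to 73.1 Mb per library. A window without a listed peak may still carry the mark below what a list shows. Genes of pluripotency had an H3K27ac peak at 9 to 10 of 10 windows in the Oct4+ libraries at 4, 1 and 3 in DP, with none at Nanog, Sox2 or Esrrb, and at 1 to 3 in the Pdgfra+ libraries. Endoderm genes had one at 10 of 10 windows in every Pdgfra+ library, at 8 to 10 in DP, and at 7, 9 and 0 in Oct4+ replicates 1, 2 and 3.

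Pax proteins bind DNA through a paired domain and the other families through a homeodomain. Many of their genes are kept silent in early embryonic cells until a lineage calls on them. H3K27me3 is laid down by Polycomb repressive complex 2, often over the CpG-rich starts of such genes. H3K27ac marks active promoters and enhancers, H3K4me1 marks enhancers whether or not they are active, and H3K9me3 marks constitutive heterochromatin.

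H3K27me3 was the mark listed at nearly all of these genes, and most widely in DP cells. In the 3 DP libraries 42, 44 and 44 of the 44 genes had a peak, a mean of 98.5% ± 2.62 (SD, n = 3). The Oct4+ libraries listed 28, 38 and 42 genes, a mean of 81.8% ± 16.4 (SD, n = 3). The Pdgfra+ libraries listed 19, 26 and 39 genes, a mean of 63.6% ± 23.1 (SD, n = 3). Over all 21911 genes the mean shares were 25.7%, 15.7% and 13.7% in DP, Oct4+ and Pdgfra+, so that the listed share at these genes was far above that at genes in general in each population. Taking a gene as marked when at least 2 of 3 libraries of a population listed it, 44 genes were marked in DP, 39 in Oct4+ and 30 in Pdgfra+, where 25.4%, 14.6% and 12% of all genes were marked. Within each library the share at these genes exceeded that over all genes by a mean of 72.8 percentage points in DP, 66.1 in Oct4+ and 49.9 in Pdgfra+. The Oct4+ excess was 16.1 points above the Pdgfra+ excess with a standard error of 9.42. Taken within replicate numbers, a choice made after seeing the data, the differences were 17.6, 24.5 and 6.22 points, with a standard error of 5.34. Deviations of same-numbered libraries from their population means correlated here at 0.58, 0.22 and 0.53. No source says that same-numbered libraries share a culture or sort, and the lists of both populations lengthened from replicate 1 to 3. The DP excess was 22.8 points above that of Pdgfra+ with a standard error of 8.11. In the bulk libraries fewer cells carrying a mark and less of the mark per cell cannot be told apart.

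**Figure D1:**
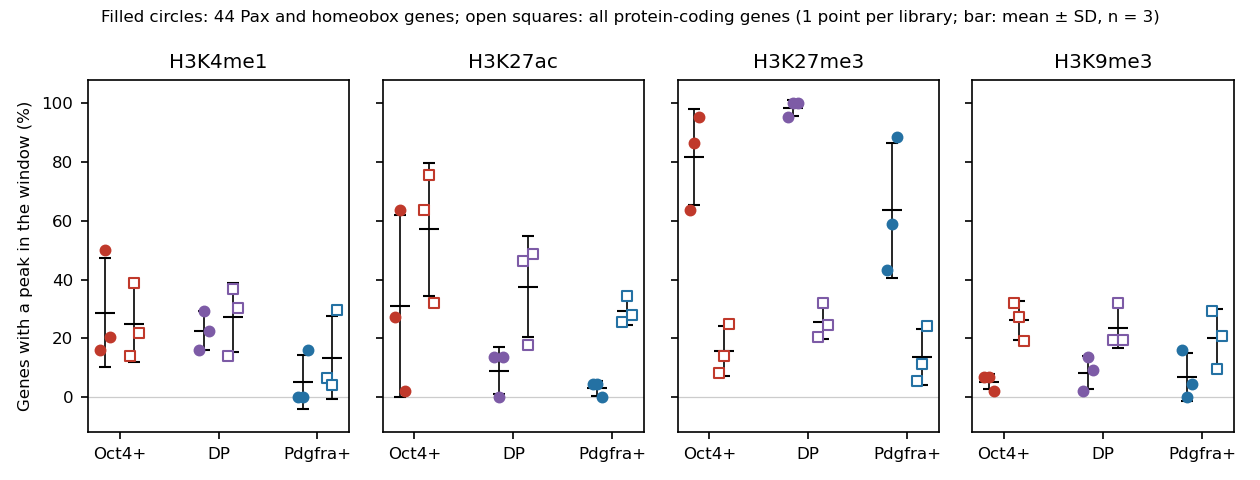
Share of genes with a listed peak in the window, in percent, for each library of Oct4+, DP and Pdgfra+ cells and each of the 4 marks, with filled circles for the 44 Pax and homeobox genes, open squares for all 21911 genes, and the mean and SD over 3 libraries. For H3K27me3 the filled circles sit above the open squares in all 9 libraries, and for H3K27ac below them.

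The length of the lists differed between libraries. The H3K27me3 lists held 1629, 2948 and 5785 peaks in Oct4+ replicates 1, 2 and 3, 3798, 8672 and 6418 in DP, and 1143, 2841 and 6151 in Pdgfra+, and the number of marked genes was lowest in the shortest list of each population. With the 1143 strongest peaks taken from every library, the mean share of the 44 genes was 69.7% in DP, 62.1% in Oct4+ and 43.9% in Pdgfra+, against 7.98%, 6.58% and 6.47% of all genes. At that equal length 33, 30 and 21 genes were listed in at least 2 of 3 libraries of DP, Oct4+ and Pdgfra+. The shares of all genes listed in this way were 7.95%, 6.2% and 5.77%. The part of sequencing depth in the remaining differences was not tested.

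No gene of the 44 lacked H3K27me3 in all 9 libraries, while 8338 of all 21911 genes had a peak in at least 1. Of the 44, 10 had a peak in every library. These were the kidney and eye gene Pax2, the muscle stem cell gene Pax7, the interneuron gene Lhx6, Nkx2-3 and Nkx2-5, Six2 of the nephron progenitors, the forebrain and eye genes Six3 and Six6, and Dlx4 and Dlx6. In all, 29 genes were listed in at least 2 of 3 libraries of each population. The 5 genes below that in Oct4+ were Nkx2-4, Nkx6-2, Nkx6-3, Six4 and Six5. The 14 genes below it in Pdgfra+ were Pax3, Pax4, Pax8, Lhx1, Lhx9, Nkx2-4, Nkx2-6, Nkx2-9, Nkx6-2, Irx2, Irx5, Irx6, Six4 and Six5. Nkx2-4 had the fewest peaks, with 19.0% and 13.9% of its window covered in DP replicates 2 and 3 and a peak in no other library.

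**Figure D2:**
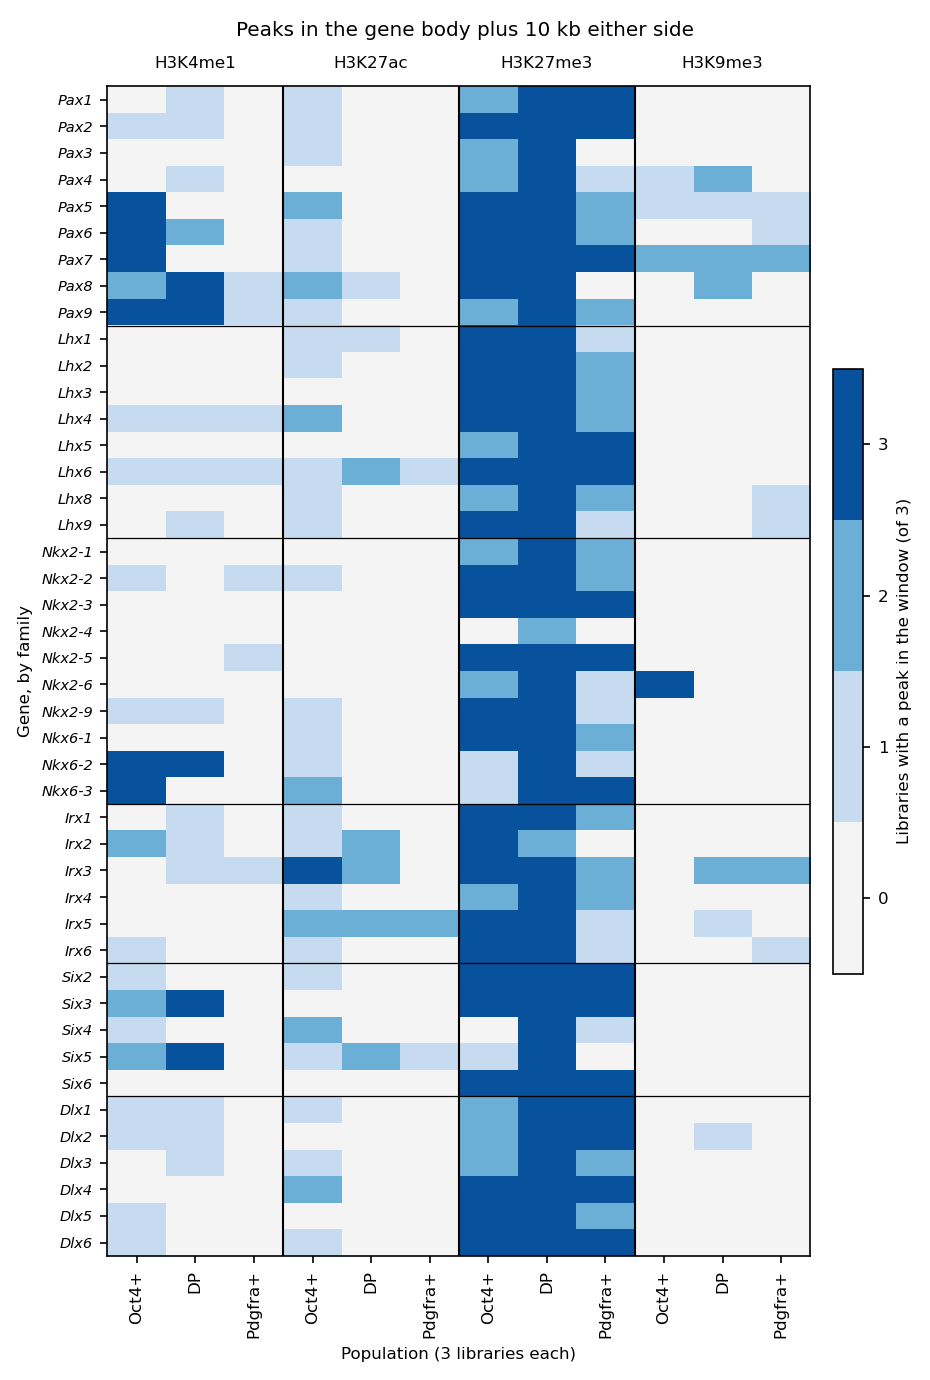
Number of the 3 libraries of each population (columns, grouped by mark) in which each of the 44 genes (rows, ordered by family) had a listed peak in its window, with darker cells for more libraries. The H3K27me3 columns are dark over most rows, above all for DP. The Oct4+ columns are filled in at least 1 library for 32 genes with H3K27ac, whereas 32 genes are empty in every H3K9me3 column.

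In DP the H3K27me3 peaks lay over nearly all gene starts. There the annotated start of 41, 42 and 38 genes was under a peak, a mean of 91.7% ± 4.73 (SD, n = 3), against 14.1% of all genes. The Oct4+ libraries had 11, 28 and 41 such genes (60.6% ± 34.2, SD, n = 3), against 9.49% of all genes. The Pdgfra+ libraries had 4, 13 and 38 (41.7% ± 40.0, SD, n = 3), against 6.51% of all genes. Replicates 1 to 3 of Oct4+ and of Pdgfra+ therefore spanned a wide range, while the DP libraries lay close together. Genes with a peak in the window but none over the start numbered 17, 10 and 1 in Oct4+, 1, 2 and 6 in DP, and 15, 13 and 1 in Pdgfra+. Averaged over libraries, the share of the 44 genes under a peak was highest just downstream of the start, with 93.9% at 750 bp in DP, 62.1% at 1250 bp in Oct4+ and 47.0% at 2250 bp in Pdgfra+. Beyond 19 kb from the start it was 18.4%, 10.2% and 8.73%.

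**Figure D3:**
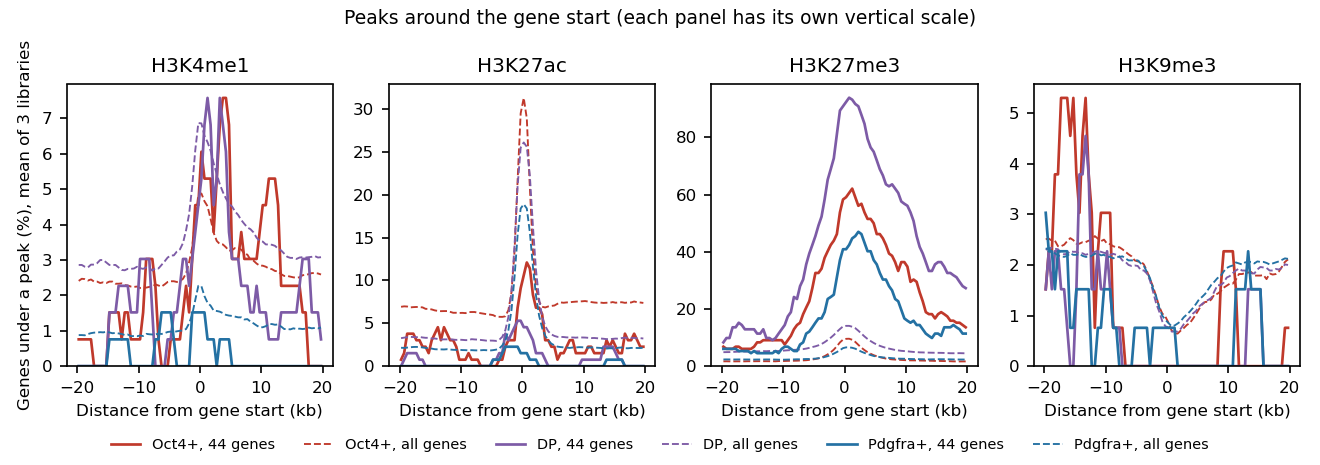
Percent of genes under a listed peak against distance from the gene start, from 20 kb upstream to 20 kb downstream, averaged over the 3 libraries of each population, with solid lines for the 44 genes and dashed lines for all genes and a separate vertical scale for each mark. The H3K27me3 lines of the 44 genes reach 93.9% in DP, 62.1% in Oct4+ and 47.0% in Pdgfra+ just downstream of the start, while the dashed lines stay at or below 14.1%.

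RefSeq promoter sequence, from 250 bases before to 50 bases after the start, was matched for 32 of the 44 genes on GRCm38.p6, and not for Pax3, Pax4, Lhx5, Nkx2-6, Nkx6-3, Irx1, Irx5, Irx6, Dlx3, Dlx4, Dlx5 and Dlx6. The 32 promoters held a median of 17.0 CG dinucleotides (range 4 to 40) and 61.3% G plus C, against 14.0 and 57.0% over 16522 promoters. Of the 32, 10 (31.2%) had at least 25 CG, as had 25.5% of all promoters. For 8 of the 32 the RefSeq start lay 1332 to 9657 bp from the gene start used for the peaks, and for the 4 promoters printed here both starts were the same. The homeodomain core TAATTA, which reads the same on both strands, was in 0 of 32 promoters and in 4.60% of all promoters, and TATAAA, searched on both strands, was in 1 of 32, that of Lhx3, and in 12.9% of all. The motifs were searched separately, and no promoter of the 32 held both. The 250 bases before the start are shown for Nkx2-3, the gene with the widest H3K27me3 cover, and for Irx2, Pax8 and Nkx6-2. In the windows of Irx2 and Pax8 H3K27me3 was listed in every Oct4+ library and in no Pdgfra+ library. In the window of Nkx6-2 H3K4me1 was listed in every Oct4+ and DP library and in no Pdgfra+ library. Over the start itself H3K27me3 was listed in 2 Oct4+ and 0 DP libraries at Irx2, and in 3 and 3 at Pax8. H3K4me1 was listed over the Nkx6-2 start in 0 Oct4+ and 2 DP libraries. Each sequence is written 5′ to 3′ on the strand of the gene with CG in capitals. They lie at chr19:43612075-43612324 on the plus strand with 14 CG (Nkx2-3), chr13:72628570-72628819 on the plus strand with 19 CG (Irx2), chr2:24475600-24475849 on the minus strand with 6 CG (Pax8) and chr7:139582798-139583047 on the minus strand with 26 CG (Nkx6-2), and none of them holds TAATTA or TATAAA.
Nkx2-3: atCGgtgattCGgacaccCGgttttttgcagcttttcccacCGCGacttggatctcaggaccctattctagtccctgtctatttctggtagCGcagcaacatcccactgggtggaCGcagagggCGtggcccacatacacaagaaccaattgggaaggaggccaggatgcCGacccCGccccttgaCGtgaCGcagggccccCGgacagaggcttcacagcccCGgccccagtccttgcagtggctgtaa
Irx2: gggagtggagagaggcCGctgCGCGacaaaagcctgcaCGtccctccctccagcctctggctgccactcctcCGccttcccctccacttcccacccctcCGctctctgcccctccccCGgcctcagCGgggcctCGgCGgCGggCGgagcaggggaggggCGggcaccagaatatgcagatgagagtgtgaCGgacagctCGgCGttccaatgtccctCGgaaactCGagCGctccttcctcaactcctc
Pax8: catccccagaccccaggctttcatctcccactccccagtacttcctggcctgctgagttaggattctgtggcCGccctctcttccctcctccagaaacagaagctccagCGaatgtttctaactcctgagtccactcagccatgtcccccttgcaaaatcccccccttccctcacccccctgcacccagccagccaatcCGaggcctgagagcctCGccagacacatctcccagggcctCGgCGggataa
Nkx6-2: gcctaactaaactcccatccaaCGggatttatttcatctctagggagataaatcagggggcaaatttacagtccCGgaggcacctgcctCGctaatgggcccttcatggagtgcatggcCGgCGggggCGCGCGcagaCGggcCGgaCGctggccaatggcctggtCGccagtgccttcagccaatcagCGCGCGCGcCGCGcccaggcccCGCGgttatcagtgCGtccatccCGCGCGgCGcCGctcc

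Width of cover, the percent of a window's bases under H3K27me3 peaks, was used to compare populations. Over the 44 genes the mean cover was 47.9% ± 6.17 (SD, n = 3) in DP, 29.0% ± 22.4 in Oct4+ and 19.4% ± 21 in Pdgfra+, against 6.14%, 2.75% and 2.92% over all genes. The mean of the 3 libraries was highest in DP at 42 of the 44 genes (95.5%), where 69.2% of the 8338 genes with an H3K27me3 peak had their highest mean in DP. The exceptions were Pax3 and Irx2, with their highest mean in Oct4+. With the equal number of peaks, DP was highest at 29 of the 39 genes still listed, where 50.2% of all genes with a peak had their highest mean in DP.

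Dlx genes, which act in the forebrain, jaw and limb, had the widest mean cover of the 6 families in DP (64.4% ± 9.52, SD, n = 3) and in Pdgfra+ (34.7% ± 33.7). Irx genes, which pattern the heart, limb and nervous system, had the widest in Oct4+ (41.3% ± 22.2), nearly the level of the same family in DP (43.7% ± 7.12), and 16.2% ± 24.2 in Pdgfra+. In Pdgfra+ replicates 1, 2 and 3, 3, 0 and 5 of the 6 Irx genes had a peak, whereas 4, 6 and 6 of the 6 Dlx genes had one. Pax genes had the narrowest mean cover in each population, with 17.9% in Oct4+, 35.8% in DP and 10.7% in Pdgfra+. Values of the Lhx, Nkx and sine oculis families lay between 47.5 and 51.7% in DP, between 23.6 and 31.1% in Oct4+ and between 18.3 and 24.4% in Pdgfra+. Families were compared by their means alone, and in Oct4+ and Pdgfra+ their SDs over 3 libraries were wider than most of these gaps. Cover is a percent of the window, so a peak of the same width gives a lower value in a longer window. Windows of Pax genes ran from 27020 to 205731 bp, and those of Dlx genes from 23347 to 25869 bp. The part of window length in the order of the families was not tested.

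**Figure D4:**
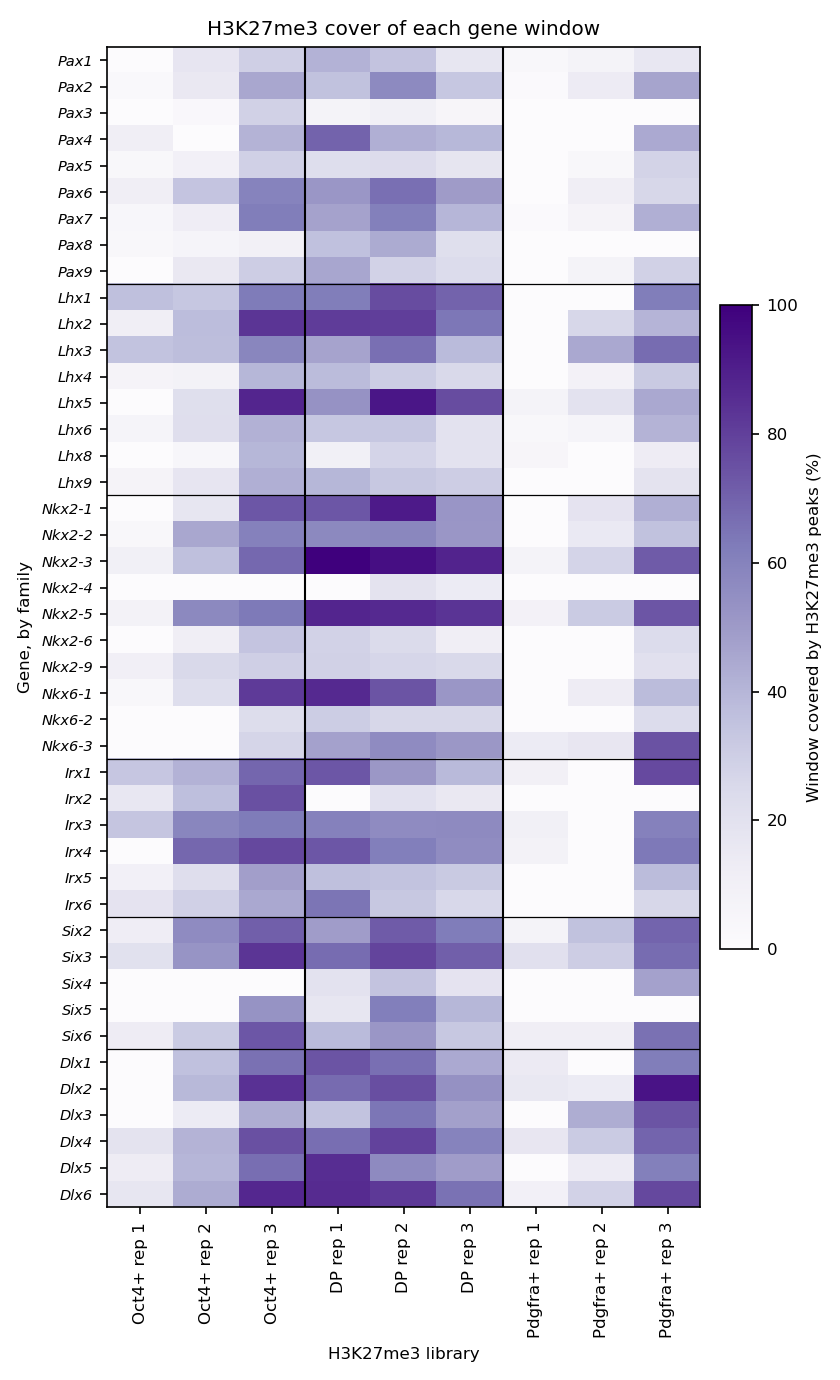
Percent of each gene's window covered by listed H3K27me3 peaks for the 44 genes (rows, by family) in the 9 libraries (columns, 3 each of Oct4+, DP and Pdgfra+), with darker cells for wider cover. The 3 DP columns are dark for most genes, and in Oct4+ and Pdgfra+ the third replicate is the darkest.

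The 5 genes with the widest mean cover over the 9 libraries were Nkx2-3, Nkx2-5, Dlx6, Six3 and Dlx4. Nkx2-3 (chr19:43612325-43615892), a gene of gut and spleen development, had 9.93, 36 and 68.0% of its window covered in the Oct4+ libraries, 100, 95.2 and 88.6% in DP, and 7.10, 27.4 and 71.9% in Pdgfra+. Nkx2-5 (chr17:26838664-26845009), the cardiac homeobox gene, had 7.99, 57.3 and 63.2% in Oct4+, 87.8, 86.6 and 83.5% in DP, and 8.85, 31.4 and 73.5% in Pdgfra+. At both genes every DP library was above every library of the other populations. Dlx6 (chr6:6863334-6868568), needed for jaw and limb, had 16.9, 43.7 and 87.4% in Oct4+, 86.2, 81.9 and 65.6% in DP, and 9.18, 28.5 and 77.7% in Pdgfra+. Six3 (chr17:85613608-85629302) had 20.4, 52.5 and 83.2% in Oct4+, 67.1, 78.7 and 70.9% in DP, and 20.9, 30.1 and 67.0% in Pdgfra+. Dlx4 (chr11:95140447-95146263) had 19.0, 40.9 and 75% in Oct4+, 66.7, 79.1 and 59.7% in DP, and 16.6, 31.3 and 69.4% in Pdgfra+. At Dlx6 and Dlx4 the third replicates of Oct4+ and Pdgfra+ lay within or above the DP values, so the populations overlapped.

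All 3 DP libraries were above all 3 Pdgfra+ libraries at 16 of the 44 genes (36.4%), a pattern found at 14.5% of the 8338 genes with a peak. These were Pax1, Pax3, Pax6, Pax8, Lhx2, Lhx5, Lhx9, Nkx2-1, Nkx2-2, Nkx2-3, Nkx2-5, Nkx2-9, Nkx6-1, Nkx6-2, Six3 and Six5. All 3 DP libraries were above all 3 Oct4+ libraries at 6 genes (13.6%), against 19.1% of genes with a peak, namely Pax8, Nkx2-3, Nkx2-5, Nkx6-2, Nkx6-3 and Six4. All 3 Oct4+ libraries were above all 3 Pdgfra+ libraries at Pax8 and Irx2 (4.55%, against 3.45%). The last 2 shares were close to those of genes in general. Nkx6-2, an oligodendrocyte and neural tube gene, had 0, 0 and 23.0% in Oct4+, 30.7, 25.9 and 26.0% in DP, and 0, 0 and 23.6% in Pdgfra+. Nkx6-3, a gene of the stomach, had 0, 0 and 27.2% in Oct4+, 47.6, 56.2 and 50.8% in DP, and 14.0, 16.5 and 74.5% in Pdgfra+. At Nkx6-3 the third Pdgfra+ library was the highest of all 9.

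A peak in 3 of 3 libraries of a population and in 0 of 3 of another was found for H3K27me3 at 5 genes, Pax3, Pax8, Irx2, Six4 and Six5, and at 5.10% of all genes. By direction these were 3 genes for DP against Pdgfra+ (2.09% of all genes), 2 for Oct4+ against Pdgfra+ (1.22%) and 1 for DP against Oct4+ (2.81%), with Pax8 in both of the first. Without replicate 3, whose Oct4+ and Pdgfra+ lists were long, 14 genes had a peak in both remaining libraries of a population and in neither of another, as had 13.3% of all genes. Pax8 (chr2:24420560-24475599), which drives thyroid and kidney development, had 3.42, 5.87 and 9.38% of its window covered in Oct4+, 35.7, 43.8 and 21.5% in DP, and 0% in every Pdgfra+ library. The populations did not overlap, in the order DP, Oct4+, Pdgfra+. Peaks of the libraries that overlapped were merged into regions, and the region over its start, chr2:24470795-24477830, was listed in all 3 Oct4+ and all 3 DP libraries, and a broader region 19.6 kb downstream of the start, chr2:24427279-24456015, in the 3 DP libraries alone. Pax3 (chr1:78101267-78197134), a gene of the neural crest and dermomyotome, had 0, 2.87 and 28.8% in Oct4+, 7.06, 9.96 and 4.87% in DP, and 0% in every Pdgfra+ library. At Pax3 a wide peak in Oct4+ replicate 3 set the high Oct4+ mean, and the Oct4+ and DP libraries overlapped.

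Irx2 (chr13:72628820-72634198), a patterning gene, had its widest H3K27me3 in Oct4+. The cover was 16.1, 36.6 and 75.2% in Oct4+, 0, 20 and 15.3% in DP, and 0% in every Pdgfra+ library. At Irx2 the Oct4+ libraries lay above the Pdgfra+ libraries but overlapped those of DP. A region over its start, chr13:72620566-72633396, was listed in 2 Oct4+ libraries and no DP library, and another, chr13:72637684-72645206, starting 8.86 kb downstream, in 3 Oct4+ and 2 DP libraries. H3K27ac was listed over the start, at chr13:72627038-72630533, in 1 Oct4+ and 2 DP libraries. Irx1 and Irx4, the other family members on chromosome 13, had H3K27me3 in every DP library, with 73.4, 50.8 and 38.4% at Irx1 and 73.3, 61.7 and 55.8% at Irx4. On chromosome 8 the DP cover was 60.3, 55.9 and 56.4% at Irx3 and 36.3, 34.8 and 31.8% at Irx5.

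At Six4 (chr12:73099609-73113456), a gene of muscle development, H3K27me3 was listed at 0% in every Oct4+ library, at 19.4, 34.7 and 18.4% in DP, and at 0, 0 and 47.3% in Pdgfra+. The merged region at the Six4 start, chr12:73107654-73114744, was listed in 0 Oct4+, 3 DP and 1 Pdgfra+ libraries, and a peak lay over the start itself in 2 DP libraries and the Pdgfra+ library, that of DP replicate 2 beginning 229 bp downstream. Six5 (chr7:19094594-19098549), next to Dmpk, had 0, 0 and 53.1% in Oct4+, 16.8, 61.5 and 39.7% in DP, and 0% in every Pdgfra+ library. At Six4 and Six5 the marked DP libraries stood against a population with no listed peak at all.

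**Figure D5:**
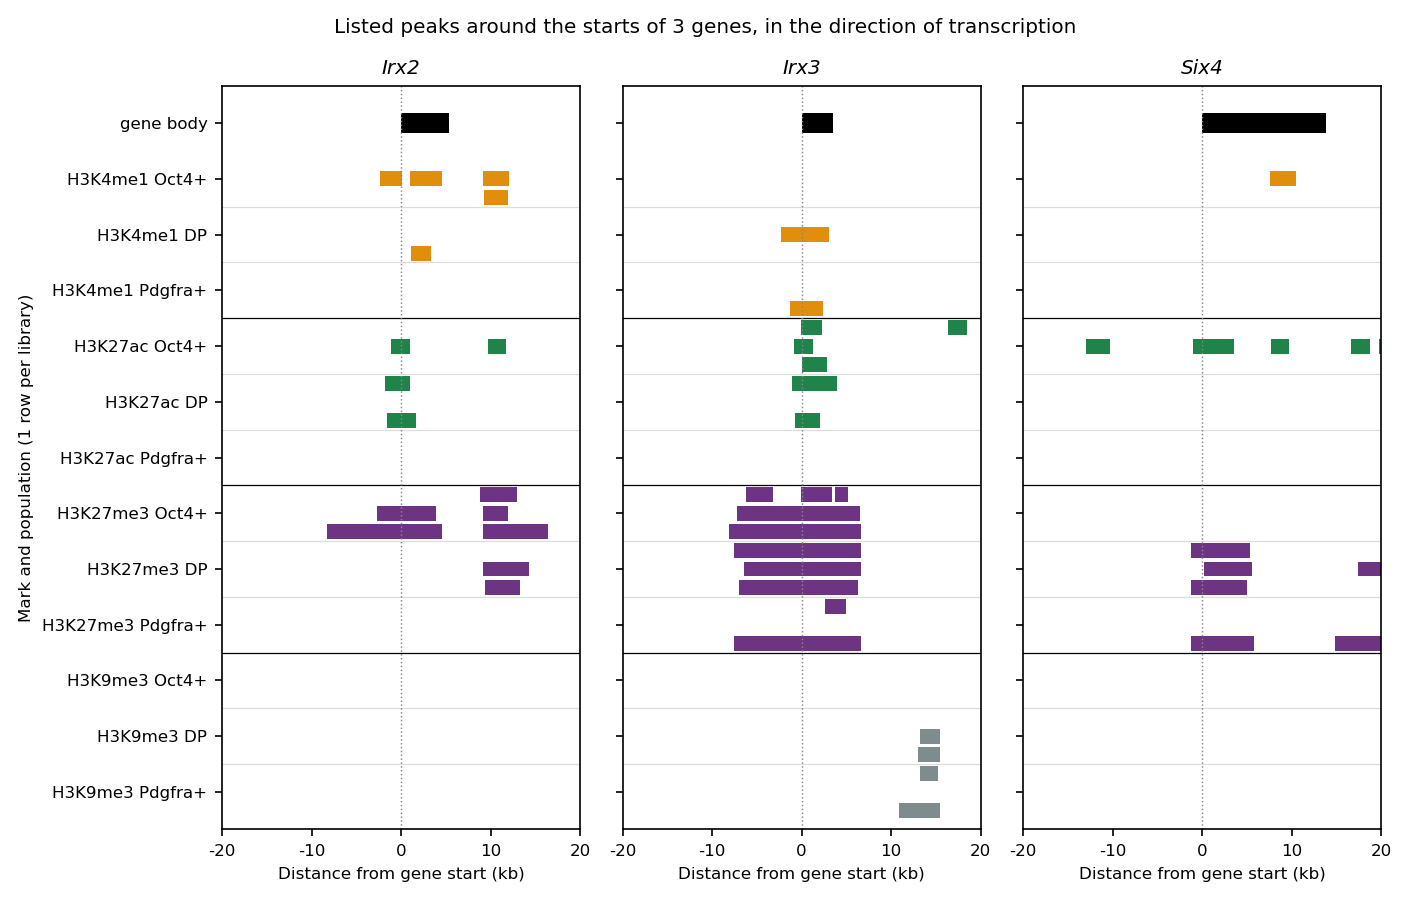
Listed peaks at Irx2, Irx3 and Six4 in all 36 libraries (rows, grouped by mark and population) against distance from the gene start in kb, with bars for peaks. H3K27me3 bars cover the Six4 start in 2 DP libraries and 1 Pdgfra+ library, with the bar of DP replicate 2 beginning just downstream, and H3K27ac bars cover the Irx3 start in 2 Oct4+ and 2 DP libraries, with the bar of Oct4+ replicate 3 beginning just downstream.

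The differences in cover were tested with an exact permutation test over all 280 ways to divide 9 libraries into 3 sets of 3, for which 0.00357 is the smallest p, with Benjamini-Hochberg adjustment over all genes with a peak of the mark. For H3K27me3, 0 of 8338 genes (0%) had an adjusted p under 0.05 in this exact test, and 574 (6.88%) had an unadjusted p under 0.05. Among the 44 genes only Pax8 had an unadjusted p under 0.05 (exact p = 0.00357, the smallest possible, adjusted p = 0.582). Irx2 had an exact permutation p of 0.05. With limma on the arcsine square root of the fraction covered, 182 genes (2.18%) had an adjusted p under 0.05, and Pax8 was the member among them (limma adjusted p = 0.0160). The same 2 tests gave 0 genes (0%) and 2 genes (0.0168%) for H3K4me1, 0 (0%) and 302 (1.71%) for H3K27ac, and 0 (0%) and 768 (7.21%) for H3K9me3. At an unadjusted exact permutation p under 0.05 there were 721 (6.05%), 1449 (8.23%) and 1275 (12%) genes for these marks, with 4, 0 and 1 of the 44 among them. The smallest exact p, 0.00357, is high for an adjustment over this many genes. The 0 counts of the exact test after adjustment therefore do not show that differences were absent, at Pax8 or elsewhere.

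The rank of the H3K27me3 peaks at these genes within their libraries varied. The strongest peak of each marked gene lay at a median percentile of 38.6, 83.9 and 92.9 of all peaks of the library in Oct4+ replicates 1, 2 and 3, of 84.1, 94.2 and 86.5 in DP, and of 53.3, 66.5 and 86.6 in Pdgfra+. Oct4+ replicate 1 was the library in which that median fell below the middle of the list. The widest peak of a marked gene had a median of 3326, 6909 and 17354 bp in Oct4+, 18531, 16691 and 8572 bp in DP, and 2244, 4065 and 14842 bp in Pdgfra+, against 3102, 4414 and 7374 bp, 11384, 6264 and 4859 bp, and 2258, 3482 and 8230 bp over all peaks of the same libraries. In Oct4+ and Pdgfra+ replicates 1 the members' widest peaks were thus about as wide as the median peak of the list. Where a gene had more than 1 peak, only its widest or strongest counted. This raises the members' medians against those over all peaks. The widest peak was 41989 bp at Pax2 in DP replicate 2, followed by 38504 bp in DP replicate 1 and 38370 bp in Oct4+ replicate 3, both at Pax7.

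H3K27ac was listed less often at these genes than at genes in general. The Oct4+ libraries listed 12, 28 and 1 of the 44 genes, the DP libraries 6, 0 and 6, and the Pdgfra+ libraries 2, 2 and 0. The means were 31.1%, 9.09% and 3.03%, against 57.2%, 37.6% and 29.4% of all genes, so the gap was -26.1, -28.5 and -26.3 percentage points. In at least 2 of 3 libraries the mark was listed at 8 genes in Oct4+, 5 in DP and 1 in Pdgfra+, where 61.2%, 43.3% and 28.7% of all genes were marked. The Oct4+ genes were Pax5, Pax8, Lhx4, Nkx6-3, Irx3, Irx5, Six4 and Dlx4, the DP genes Lhx6, Irx2, Irx3, Irx5 and Six5, and the Pdgfra+ gene Irx5. The remaining genes were listed in fewer libraries, and 12 had no H3K27ac peak in any: Pax4, Lhx3, Lhx5, Nkx2-1, Nkx2-3, Nkx2-4, Nkx2-5, Nkx2-6, Six3, Six6, Dlx2 and Dlx5. Of all 21911 genes, 17617 had an H3K27ac peak in at least 1 library.

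The Oct4+ libraries differed most for this mark. Oct4+ replicate 2, with 65131 H3K27ac peaks the longest list of the series, was the only library with H3K27ac for 16 of the 44 genes, and without replicate 2 the Oct4+ mean was 14.8%. Genes of fibroblasts, the type of the feeder cells, had an H3K27ac peak at 4, 8 and 0 of 10 windows in Oct4+ replicates 1, 2 and 3, at 1, 0 and 0 in DP and at 0 in every Pdgfra+ library. Of that list only Prrx1 had no peak in Oct4+. The fibroblast counts moved with the 12, 28 and 1 members listed in the same Oct4+ libraries, as did the 7, 9 and 0 endoderm genes, and their part in the members' H3K27ac was not tested.

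Irx3 (chr8:91798525-91802067) was the gene with H3K27ac in 3 of 3 Oct4+ and 0 of 3 Pdgfra+ libraries, a pattern of 6.92% of all genes, and the only member among the 7.17% of genes with 3 against 0 in any direction. Without replicates 2 or 3 the members with 2 against 0 libraries were 4 and 7, where 18.5% and 28.0% of all genes had that pattern. Its cover was 9.93, 9.13 and 11.8% in Oct4+, 21.3, 0 and 12.1% in DP, and 0% in every Pdgfra+ library, from a merged region at the start, chr8:91798144-91803156, where the peak of Oct4+ replicate 3 began 78 bp downstream of the start and the others lay over it. Irx3 was also the only member listed in Oct4+ replicate 3. H3K27me3 at Irx3 covered 33.6, 58.3 and 62.5% in Oct4+ and 9.85, 0 and 60.4% in Pdgfra+. Irx5 (chr8:92357625-92376286) had 11.2, 16 and 0% under H3K27ac in Oct4+, 10.1, 0 and 6.84% in DP, and 15.6, 5.82 and 0% in Pdgfra+, at chr8:92352554-92358601, and was the only one of the 44 listed in 2 libraries of each population. In Oct4+ its H3K27me3 cover was 9.15, 22.1 and 48.1%, whereas in Pdgfra+ it was 0, 0 and 37.6%. In DP the H3K27me3 cover of Irx5 was 36.3, 34.8 and 31.8%. No source says that same-numbered libraries of different marks share a culture or sort. The 2 marks at Irx5 were therefore not compared by replicate number.

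Other members had H3K27ac in some libraries of a population. Six4 had 5.63, 38.2 and 0% in Oct4+ and no peak elsewhere. Both of those libraries listed a region at chr12:73084416-73093755, which lies 19.7 kb downstream of its start and only partly in the window, and replicate 2 alone listed further regions, among them chr12:73109907-73114490 over the start. Six5 had 0, 22.6 and 0% in Oct4+, 20.9, 0 and 27.5% in DP, and 23.9, 0 and 0% in Pdgfra+, at chr7:19090346-19098077. Irx2 had 0, 16.1 and 0% in Oct4+, 11, 0 and 13.2% in DP, and none in Pdgfra+. At Six5 and Irx2 the libraries of every population overlapped.

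H3K4me1 was listed at a minority of these genes in every population. The Oct4+ libraries listed 7, 22 and 9 genes, the DP libraries 7, 13 and 10, and the Pdgfra+ libraries 0, 0 and 7. The means were 28.8%, 22.7% and 5.30%, against 24.9%, 27.2% and 13.3% of all genes. The gap to all genes was 3.93 percentage points in Oct4+ (standard error 3.69), -4.46 in DP (3.12) and -8.04 in Pdgfra+ (2.88). At least 2 of 3 libraries listed 10, 6 and 0 genes, with 23.1%, 27.6% and 7.87% of all genes. At 15 genes no library listed the mark, while 11925 of all 21911 genes had a peak of it in at least 1. Pax genes held 4, 6 and 5 of the listed genes in Oct4+ and 3, 5 and 3 in DP, out of 9 genes, while Six2 to Six6 held 2 of 5 in each DP library.

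For H3K4me1, 7 of the 44 genes had a peak in 3 of 3 libraries of a population and 0 of 3 of another, as did 6.47% of all genes: Pax5, Pax6, Pax7, Nkx6-2, Nkx6-3, Six3 and Six5. In all 7 the population with 0 of 3 included Pdgfra+. By direction there were 3 genes for Oct4+ against DP (1.57% of all genes), 5 for Oct4+ against Pdgfra+ (3.57%) and 3 for DP against Pdgfra+ (1.20%). Pax5 (chr4:44524757-44710487), a B cell gene, had 1.06, 4.17 and 0.741% of its window covered in Oct4+ and none in DP or Pdgfra+, with an intronic region at chr4:44542931-44547144. Pax7 (chr4:139737062-139833528) had 1.89, 3.17 and 2.35% in Oct4+ and none elsewhere, with an intronic region at chr4:139766125-139769820. Nkx6-3 (chr8:23153269-23158948) had 9.70, 54.9 and 17.2% in Oct4+ and none elsewhere, including an intergenic region at chr8:23164542-23170983 that starts 11.3 kb downstream of the gene start. None of these regions touched the start of its gene. At Nkx6-3 another H3K4me1 region, chr8:23153089-23159204, lay over the start in Oct4+ replicate 2 alone.

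The other 4 genes had H3K4me1 in DP as well. Pax6 (chr2:105668900-105697364), the eye gene, had 4.02, 26.2 and 4.51% in Oct4+, 3.28, 6.63 and 0% in DP, and none in Pdgfra+, with a region at chr2:105679330-105682147 starting 10.4 kb downstream of the start. Nkx6-2 (chr7:139579376-139582797) had 11.6, 38.1 and 12.3% in Oct4+, 10.9, 19.7 and 13.3% in DP, and none in Pdgfra+. Oct4+ and DP overlapped at both genes. Six3 had 0, 7.41 and 6.27% in Oct4+, 7.11, 33.3 and 4.93% in DP, and none in Pdgfra+. Six5 had 5.46, 35.7 and 0% in Oct4+, 10.1, 9.24 and 7.45% in DP, and none in Pdgfra+, where the shared region lay over the start of Dmpk, 7.20 kb upstream of the Six5 start. Pax5, Pax7, Nkx6-2 and Nkx6-3 were the 4 genes with an unadjusted exact p under 0.05, with p = 0.0286 at Nkx6-2, and the smallest adjusted p among the 44 was 0.655 in the exact test.

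H3K9me3 was rare at these genes. The Oct4+ libraries listed 3, 3 and 1 genes, the DP libraries 1, 6 and 4, and the Pdgfra+ libraries 7, 0 and 2, which gave means of 5.30%, 8.33% and 6.82% against 26.2%, 23.7% and 20% of all genes. At least 2 of 3 libraries listed 2, 4 and 2 genes, against 25.8%, 22.1% and 19.4% of all genes. No library listed the mark at 32 genes, and a gene start was under a peak in only 1 library, at Pax6 in Pdgfra+ replicate 1. Of all 21911 genes, 10656 had an H3K9me3 peak in at least 1 library. Nkx2-6 (chr14:69171802-69175518), a gene of the pharyngeal arches and heart, had 16.2, 15.2 and 14.2% of its window covered in Oct4+ and 0% in every DP and Pdgfra+ library, patterns that 2.33% and 3.92% of all genes showed against DP and Pdgfra+ (6.39% in any direction). The peaks lay on both sides of the gene, at chr14:69160068-69163035, which ends 8.77 kb upstream of the start, and at chr14:69180447-69183226, which starts 8.64 kb downstream of it. The test of Nkx2-6 gave an exact permutation p of 0.0357 with an adjusted p of 0.322, and an adjusted p of 0.000438 with limma.

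Pax7, Irx3, Pax4 and Pax8 were the other genes with H3K9me3 in at least 2 of 3 libraries of a population. Pax7 had 7.46, 0.873 and 0% in Oct4+, 0, 16.2 and 10.4% in DP, and 10.1, 0 and 2.42% in Pdgfra+, with all populations overlapping. Pax4, a pancreatic islet gene, had 0, 11.1 and 0% in Oct4+, 2.86, 9.45 and 0% in DP and none in Pdgfra+. Irx3 had 0, 1.44 and 2.55% in DP, 1.58, 0 and 11.4% in Pdgfra+ and none in Oct4+, from a region at chr8:91786584-91791206. Pax8 had 0, 3.23 and 2.20% in DP and none elsewhere. None of these covers separated the populations library by library.

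Most of the genes carried H3K27me3 without H3K27ac or H3K4me1. With each mark taken as present in at least 2 of 3 libraries, 28 genes in Oct4+, 34 in DP and 30 in Pdgfra+ had H3K27me3 alone of the 3 marks, as had 4.72%, 12.4% and 9.75% of all genes. All 3 marks were present at Pax5 and Pax8 in Oct4+ and at Six5 in DP, and at 0 of the 44 in Pdgfra+, against 3.63%, 5.63% and 0.488% of all genes. H3K27ac without H3K27me3, which 52.2%, 33.4% and 26.8% of all genes had, was found at Nkx6-3 and Six4 in Oct4+, at 0 of the 44 in DP and at Irx5 in Pdgfra+. None of the 3 marks was listed at 1 gene in Oct4+, Nkx2-4, at 0 in DP and at 13 in Pdgfra+, against 31.9%, 38.0% and 59.5% of all genes. H3K27me3 and H3K4me1 peaks shared bases in at least 2 of 3 libraries at Pax6, Pax9, Irx2 and Six3 in Oct4+ and at Pax9, Nkx6-2 and Six3 in DP, with 1.65% and 2.69% of all genes. H3K27me3 and H3K27ac peaks shared bases at Irx3 and Irx5 in both Oct4+ and DP, with 1.88% and 1.82% of all genes. In Pdgfra+ 0 of the 44 had either overlap, against 0.0274% and 0.0548% of all genes. Peaks that share bases can come from different cells of a population.

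The H3K27me3 pattern was compared with other gene lists. Hox genes had a mean cover of 39.4% in Oct4+, 68.4% in DP and 30.9% in Pdgfra+, above the 29.0%, 47.9% and 19.4% of the 44 genes in each population. Other homeobox genes had 32.4%, 50.6% and 22%, near the values of the 44 genes. The highest mean in DP and the lowest in Pdgfra+ were thus shared with both lists, and no difference between lists was tested.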

How the data were processed

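Peak lists of 36 CUT&Tag libraries were used, 9 for each of 4 marks. The authors sequenced the libraries, aligned reads to mm10 and called peaks in each library with SEACR in stringent mode against numbered IgG controls, and the submitters' processing notes name bcl2fastq 2.19.1, Bowtie2, SAMtools 1.12, deepTools, SEACR and bedtools 2.26.0. The deposited signal of each peak is coverage summed over its bases, not scaled to depth. The number of reads and the normalisation setting of SEACR are not given in the sources used here, so that depth is unknown and signal was not compared between libraries except through the stated thresholds. The 3 IgG samples were not analysed here.

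Peaks were placed on GRCm38 with GENCODE vM21 (21911 protein-coding gene symbols), a window being the gene body plus 10 kb on either side, with overlaps computed in Python 3.11.15 (NumPy 2.4.6, pandas 2.3.3, SciPy 1.17.1) and checked against bedtools 2.31.1. Groups came from the sample titles. For each mark, population differences in the percent of the window covered were tested by an exact permutation test over 9 libraries with Benjamini-Hochberg adjustment, and by limma 3.58.1 in R 4.3.3, over every gene with a peak of the mark; both were tested on simulated data. Deviations from the population means correlated at 0.58, 0.22 and 0.53 between same-numbered Oct4+ and Pdgfra+ libraries for H3K27me3, so that these were also compared within numbers; no other mark and pair of populations had all 3 correlations over 0.1. Promoter sequences were RefSeq's for GRCm38.p6, and plots were drawn with Matplotlib 3.10.9. The genes, lists and tests were chosen with earlier results of these data known.

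Genes given with values in every library were those with a peak in 3 of 3 libraries of a population and 0 of 3 of another for H3K27ac, H3K4me1 or H3K27me3 or with an adjusted p under 0.05, the 5 with the widest mean H3K27me3 cover, those with H3K27ac in at least 2 of 3 libraries of every population, and those with H3K9me3 in at least 2 of 3 libraries of any. Nkx2-4, and further marks of genes named by the rule, were added after their values were seen. Alternatives were other windows (gene body, 50 kb, 5 kb around the start), an equal number of peaks, the stronger 50% of peaks, a common total signal, at least 500 bases of overlap, each replicate left out, a replicate block, limma, and 1 or 3 libraries for a combination of marks.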

Additional observations from a re-analysis of the deposited data

How the results depend on the processing

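In the share of genes listed, H3K27me3 was highest in DP and lowest in Pdgfra+ under each alternative run, but at 50 kb the excess over all genes was 57.2 points in Oct4+ and 56.5 in DP. The mean share of the 44 genes in Oct4+, DP and Pdgfra+ was 62.1, 69.7 and 43.9% with an equal number of peaks and 37.1, 84.1 and 25.8% with a common total signal. It was 62.9% in Oct4+ and 89.4% in DP with the stronger 50% of peaks, and 95.5% in DP for the gene body alone. Of all genes, 5.65, 14.4 and 5.07% were listed in Oct4+, DP and Pdgfra+ with the common signal. With the stronger 50% of peaks 9.34% of all genes were listed in Oct4+ and 16.7% in DP. For the gene body 18.3% were listed in DP. With the common signal, 8, 40 and 0 genes were listed in at least 2 of 3 libraries of Oct4+, DP and Pdgfra+. The shares of all genes were 1.3, 14.6 and 0.173%, and this alternative was chosen after seeing the data. With a replicate left out the Oct4+ share was 75 to 90.9%, the DP share 97.7 to 100% and the Pdgfra+ share 51.1 to 73.9%. Over all genes these shares were 11.2 to 19.5%, 22.5 to 28.3% and 8.38 to 17.8%. Mean cover was highest in DP at 30, 38 and 43 of 44 genes without replicates 1, 2 and 3. Of all genes with a peak, 57.2, 51.4 and 92.9% then had their highest mean in DP. Genes with H3K27me3 in 3 of 3 libraries of a population and 0 of 3 of another numbered 3 for the gene body, 50 kb and 5 kb windows. The shares of all genes were 3.82, 7.17 and 3.63%. With the common signal there were 2, against 1.51% of all genes. When 2 against 0 libraries was asked, there were 6, 5 and 14 without replicates 1, 2 and 3, against 9.96, 5.56 and 13.3%.

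For H3K27ac the DP share was 18.9% at 50 kb and 0 with equal peaks, and the Pdgfra+ share 12.9% at 50 kb and 0 with the stronger 50% of peaks. Under these settings 52.8 and 18.2% of all genes were listed in DP, and 45.8 and 16.7% in Pdgfra+. The Oct4+ minus Pdgfra+ excess, 0.241 points, was 16.4 at 50 kb, -9.53 with the stronger 50%, 13.5 with the common signal, and -8.50 to 8.14 with a replicate left out. The 3 against 0 count, 1 gene, was 5 at 50 kb, against 8.89% of all genes. It was 0 under equal peaks, the stronger 50% and the common signal, against 5.73, 6.73 and 1.45%. Without replicates 1, 2 and 3, 2 against 0 libraries was found at 1, 4 and 7 genes, against 8.16, 18.5 and 28.0%.

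For H3K4me1 the Oct4+ share was 3.03% with equal peaks and 6.82% with the common signal, and the DP share was 32.6% at 50 kb, 14.4% at 5 kb, 0 with equal peaks, 6.06% with the stronger 50% and 9.85% with the common signal. The excess, 12 points, was 3.63 at 5 kb, 2.77, 5.98 and 1.95 under equal peaks, the stronger 50% and the common signal. The 3 against 0 count, 7, was 4 for the gene body, 1 at 5 kb, 3 with the stronger 50%, and 0 with equal peaks or the common signal. Of all genes 4.97, 2.78, 4.67, 2.29 and 0.625% had the pattern under these settings, in that order.

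For H3K9me3 the shares in Oct4+, DP and Pdgfra+ were 44.7, 36.4 and 29.5% at 50 kb, against 54.6, 48.8 and 39.9% of all genes. Oct4+ was 1.52% for the gene body, equal peaks and the common signal, and Oct4+ and DP were 0 at 5 kb. Of all genes, 14.9, 8.95 and 11.8% were listed in Oct4+ for the gene body, equal peaks and the common signal. At 5 kb, 5.98 and 5.24% of all genes were listed in Oct4+ and DP. The excess, -7.71 points, changed sign at 50 kb (0.545), with equal peaks (1.69) and with the common signal (0.880), was -4.45, -2.71 and -0.806 for the gene body, 5 kb and the stronger 50%, and -11.3 to -5.68 with a replicate left out. The 3 against 0 count, 1, was 8 at 50 kb, against 9.12% of all genes. It was 0 for the gene body, 5 kb, equal peaks and the common signal, against 3.91, 1.97, 5.43 and 4.52%. Without replicates 1, 2 and 3, 2 against 0 libraries was found at 3, 2 and 2 genes, against 12.1, 11.7 and 11.8%. limma called 1 gene for H3K27me3 and 1 for H3K9me3 where the exact test, with its high smallest p, called 0.

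With marks needed in at least 1 library, H3K27me3 alone was found at 8 genes in Oct4+, against 2.32% of all genes. All 3 marks were found at 18, 5 and 1 in Oct4+, DP and Pdgfra+, against 12.9, 12.7 and 4.51%. H3K27ac without H3K27me3 was found at 1 in Oct4+, against 57.5%. With 3 of 3 libraries needed, H3K27me3 alone was found at 15 in Pdgfra+, against 4.01% of all genes. All 3 marks were found at 0 in Oct4+ and DP, against 0.438 and 0.931%. H3K27ac without H3K27me3 was found at 0 in Oct4+ and Pdgfra+, against 29.8 and 20.7%. The cause of these changes was not tested.

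Over all 3 populations the replicate numbers did not pair the libraries. Same-numbered libraries had correlated deviations over 0.1 in 4, 1, 3 and 0 of 9 pairs for H3K4me1, H3K27ac, H3K27me3 and H3K9me3, and a library correlated best with its own number in 6, 3, 4 and 5 of 18 matches. With the replicate block, where 0.0278 is the smallest exact permutation p, 0 genes had an adjusted p under 0.05 for any mark (smallest 0.734, 0.753, 0.723 and 0.709), and 0, 0, 2 and 0 of the 44 had an unadjusted p under 0.05, as had 1.63, 0.744, 1.27 and 1.75% of the genes tested. Since the smallest p is so high, these 0 counts of genes after adjustment do not show that differences were absent. With the replicate block as paired differences, chosen after seeing the data, the Oct4+ minus Pdgfra+ excess had a standard error of 5.34 points for H3K27me3, where deviations of same-numbered libraries correlated, and of 1.96, 9.64 and 3.65 points for H3K4me1, H3K27ac and H3K9me3. Depth is unknown, so a missing peak limits no level of the mark.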
